A study of Homo sapiens with 12 samples.

Results

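Among the genes of PE/CA-PJ41 cells, a human oral squamous cell carcinoma line, 15 had an estimated transcript length that differed between treated and control libraries by at least 0.4 on the log2 scale. They were chosen by that difference in mean log2 effective length between the 8 treated and the 4 control libraries, among the 9647 genes with at least 5 TPM (an expression level corrected for transcript length and library size) in all 12 libraries, out of 20375 genes listed. Members were 0.155% of the 9647 genes, 0.135% with a shorter and 0.0207% with a longer estimate. In 13 of them the average transcript was shorter in treated cells (NOPCHAP1, GTF2IRD2B, SESTD1, PNPLA4, AGO3, ZNF264, FAM120C, SSH2, PHF19, TFDP2, C6orf132, CYYR1 and CLPB), and in KATNBL1 and WDR81 it was longer.

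Polyadenylated RNA was sequenced from 3 groups of 4 libraries. The PRP group came from cells given platelet-rich plasma at 10% for 48 h, the plasma group from cells given human plasma at 10% for 48 h, and the control group from untreated cells whose culture time is not given. All groups are the same line, the donors of the plasma are not described, and the labels do not say that the 4 libraries of a group are separate cultures, so the spread behind each p-value may be only technical. "Treated" below means the PRP and plasma libraries together.

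Most human genes give several mRNAs, through different promoters, splice sites and poly(A) sites, and these isoforms can differ in length, in the protein they encode and in their stability. Salmon, which assigns reads to transcripts, reports for each gene a length averaged over its transcripts by their estimated abundance, so a gene's length moves when its isoform mix is estimated to move. Effective length is that length less the part in which no fragment can start. TPM is the number of reads divided by effective length and scaled to the library, so for the same reads a shorter estimate gives a higher TPM.

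The total of estimated reads was 36943548 to 41976136 in PRP, 36258955 to 41946780 in plasma and 40166503 to 41531218 in control libraries. The median gap between length and effective length was 262.4 to 280.1 bases in PRP, 262.4 to 281.8 in plasma and 263.2 to 275.1 in control libraries, so the groups overlapped in it. None of the 8 squamous keratinocyte markers examined was at 0 in all libraries. Their summed TPM was 14200 to 15700 in PRP, 14100 to 15500 in plasma and 11500 to 12900 in control libraries. Of 4 platelet and 4 erythroid markers, PF4, GP9, HBB and ALAS2 were at 0 in all libraries, and the sums over each list reached at most 0.693 and 2.83 TPM in any library. The summed TPM of 6 leukocyte markers was 5.84 to 7.36 in PRP, 5.36 to 7.08 in plasma and 2.93 to 4.02 in control libraries. The keratinocyte and leukocyte sums were higher in all treated libraries than in any control library, and their part in the results was not tested.

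Over all 9647 genes the shift in effective length was centred near 0, with a median of -0.002, a 1st percentile of -0.23 and a 99th percentile of 0.14 (log2, treated minus control). Larger shifts were more often to shorter than to longer estimates. At a limit of 0.2 there were 158 shorter and 24 longer genes, and at 0.3 there were 41 and 5. On the shorter side the limit of 0.4 fell on a continuous tail. Just inside it were CLPB at -0.404, CYYR1 at -0.408 and C6orf132 at -0.420, and just outside ZNF548 at -0.392, WWOX at -0.368 and KCNMA1 at -0.362. On the longer side KATNBL1 at 0.531 and WDR81 at 0.529 stood inside, with PRRG2 at 0.374, TVP23C at 0.336 and ESPN at 0.322 outside.

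**Figure D1:**
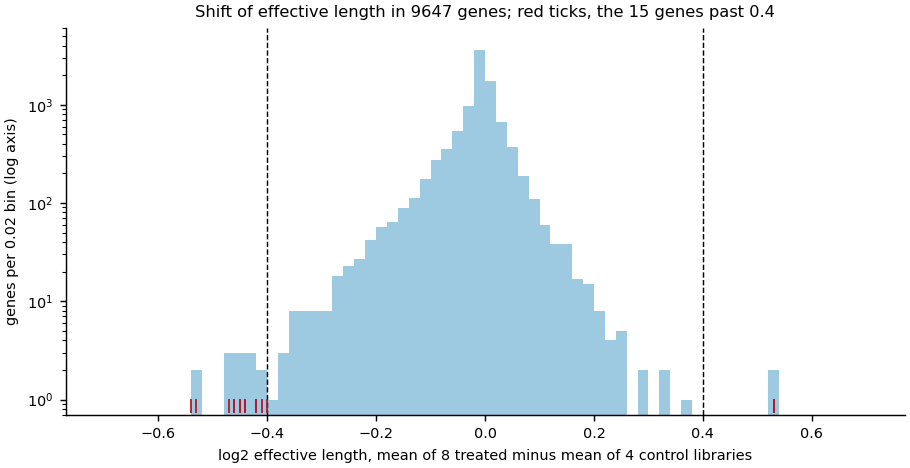
Shift of log2 effective length (x axis, mean of 8 treated minus mean of 4 control libraries) for 9647 genes, counted per bin on a log axis. The dashed lines mark the limit of 0.4 and the red ticks the 15 genes past it, 13 shorter and 2 longer.

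In the GENCODE v29 annotation (GRCh38), the 15 genes had a median of 9 transcripts, against 8 over the 9604 of the 9647 genes that could be matched. Their longest transcripts were longer, with a median of 8057 bases against 3623 bases for all. The 3′ untranslated region made up a median of 72.3% of the longest transcript in the 15 genes, against 40.2% in all genes. A longest transcript without a coding region was counted as having no 3′ untranslated region. That can lower the value for all genes but not that of the 15, whose longest transcripts all code. The longest over the shortest transcript of a gene had a median ratio of 12.6 in the 15 genes and 7.5 in all. A large shift of an averaged length needs transcripts that differ in length, so nothing is read from these values. These are descriptions of the annotation, and v29 is not the transcript set used to make the files: of 944 genes with a single length in all 12 libraries, 76 (8.05%) had a v29 transcript of that length within 0.5 bases. The estimated length stayed within the range of annotated transcripts in 14 of the 15 genes. WDR81 passed it, with a highest library value of 6767 bases against 6733 bases for the longest annotated transcript.

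Alternative starts are one source of isoforms, so the promoters of 3 members are shown. They are the genes with the lowest reads relative to control among the 9 members with a single entry in the RefSeq promoter table (GRCh38.p14). Members without exactly 1 entry were not considered. Each is 300 bases around the start. The KATNBL1 window is chr15:34210047-34210346 on the minus strand and holds 8 of the 17 annotated v29 transcript starts. The CYYR1 window is chr21:26573237-26573536 on the minus strand and holds 1 of 2 starts. The AGO3 window is chr1:35930855-35931154 on the plus strand and holds 3 of 7 starts. Capitals mark the GC box GGGCGG on either strand, searched together with CCAAT and TATAAA, each match counted even where it overlaps another.
KATNBL1: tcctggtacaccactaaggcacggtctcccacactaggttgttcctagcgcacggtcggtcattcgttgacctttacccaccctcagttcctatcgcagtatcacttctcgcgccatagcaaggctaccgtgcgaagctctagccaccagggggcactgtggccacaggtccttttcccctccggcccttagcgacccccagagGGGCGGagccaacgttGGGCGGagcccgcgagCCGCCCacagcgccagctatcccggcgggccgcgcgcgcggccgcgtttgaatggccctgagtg
CYYR1: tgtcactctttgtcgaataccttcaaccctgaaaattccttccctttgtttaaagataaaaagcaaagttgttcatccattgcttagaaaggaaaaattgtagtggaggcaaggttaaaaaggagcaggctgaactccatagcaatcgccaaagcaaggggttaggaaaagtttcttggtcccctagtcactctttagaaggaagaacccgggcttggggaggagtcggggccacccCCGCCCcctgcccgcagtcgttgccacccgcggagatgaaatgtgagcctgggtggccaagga
AGO3: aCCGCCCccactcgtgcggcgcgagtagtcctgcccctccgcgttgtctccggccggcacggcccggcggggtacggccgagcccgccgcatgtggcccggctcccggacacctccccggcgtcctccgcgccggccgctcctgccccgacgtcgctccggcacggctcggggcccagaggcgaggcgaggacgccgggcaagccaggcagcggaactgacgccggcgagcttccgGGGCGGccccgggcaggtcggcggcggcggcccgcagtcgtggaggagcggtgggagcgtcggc
KATNBL1 held 3 GC boxes, AGO3 2 and CYYR1 1, and none of the 3 windows held CCAAT or TATAAA. Of 35116 promoters in the table, 45% held GGGCGG, 34.6% CCAAT and 11.5% TATAAA.

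Among the members that act on the cytoskeleton and on membranes, KATNBL1 had the largest change of reads and of TPM in the set. KATNBL1 (ENSG00000134152, chr15:34140674-34210096, minus strand) encodes a protein that binds and regulates katanin, the enzyme that cuts microtubules. Its effective length was 1344, 1519, 1311 and 1374 bases in the 4 PRP libraries, 1356, 1412, 1584 and 1477 bases in the plasma libraries, and 970, 1006, 1037 and 919 bases in the control libraries. All 8 treated libraries were above all control libraries, and PRP and plasma overlapped. The annotated KATNBL1 transcripts run between 436 and 2723 bases. The longest has 10 exons and codes over 912 bases. The estimated length, an average over transcripts that names no single one, was 1657 ± 86.2 bases in PRP and 1725 ± 102 bases in plasma libraries, against 1250 ± 45.6 bases in control libraries (SD, n = 4 each).

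KATNBL1 reads were 1137, 1322, 1470 and 1429 in PRP, 1354, 1208, 1478 and 1472 in plasma, and 2384, 2316, 2833 and 2926 in control libraries. Its TPM averaged 36.1 ± 3.19 in PRP, 35.5 ± 1.98 in plasma and 101 ± 11.6 in control libraries (SD, n = 4 each). Both measures were lower in every treated library than in any control library. The change of reads was -0.90 (SE 0.06) and that of TPM -1.46 (SE 0.07), both as log2 of the value plus 1, treated minus control. The TPM change less the read change was -0.56, beside a length shift of 0.53. These values come from the contrast that chose the gene and are given without a test.

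WDR81 (ENSG00000167716, chr17:1716523-1738599, plus strand), which acts in endosome and lysosome trafficking, was the other gene with a longer estimate. The 4 PRP libraries had effective lengths of 5874, 6204, 5756 and 4758 bases, the plasma libraries 5322, 5746, 6499 and 4948 bases, and the control libraries 4352, 4408, 3180 and 3741 bases. The groups did not overlap, but the lowest treated value of 4758 lay close to the highest control value of 4408. The longest annotated transcript, WDR81-202, has 6733 bases and codes over 5823 of them, and the next longest is a retained-intron transcript of 4432 bases. WDR81 reads, given as CPM (estimated reads scaled by the library total), averaged 42.0 ± 5.52 in PRP, 43.8 ± 4.09 in plasma and 57.5 ± 3.13 in control libraries (SD, n = 4 each), a log2 change of -0.42 (SE 0.07). TPM averaged 11.3 ± 0.994 in PRP, 11.9 ± 1.83 in plasma and 23.1 ± 3.21 in control libraries, a change of -0.94 (SE 0.09). WDR81 shares 459 exonic bases with the antisense gene AC130343.1, and the strand setting of the counting is not stated.

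SSH2 and SESTD1 differed from these in that reads hardly moved. SSH2 (ENSG00000141298, chr17:29625938-29930276, minus strand) encodes slingshot phosphatase, which activates the actin-severing protein cofilin. The SSH2 effective length was 1470 to 1671 bases in PRP, 1407 to 1902 bases in plasma and 1996 to 2351 bases in control libraries. CPM averaged 64.1 ± 7.14 in PRP, 65.2 ± 6.51 in plasma and 63.7 ± 6.34 in control libraries (SD, n = 4 each). TPM averaged 62.0 ± 5.56 in PRP, 59.1 ± 3.61 in plasma and 44.9 ± 3.33 in control libraries. The TPM difference therefore stood without a difference in reads beyond the spread.

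SESTD1 (ENSG00000187231, chr2:179101692-179264790, minus strand) encodes a phospholipid-binding protein with a SEC14 domain and spectrin repeats. Its effective length was 3151, 2902, 3611 and 2868 bases in PRP, 3459, 3269, 3190 and 3428 bases in plasma, and 4422, 4466, 3993 and 5075 bases in control libraries. Reads were 1427, 1563, 1726 and 1541 in PRP, 1765, 1507, 1767 and 1618 in plasma, and 1642, 1661, 1711 and 1621 in control libraries, so the 3 groups overlapped. TPM was 19.3, 19.8, 17.0 and 18.8 in PRP, 19.3, 19.6, 19.6 and 16.6 in plasma, and 14.2, 14.7, 15.8 and 11.8 in control libraries, with no overlap between treated and control. The log2 changes were -0.02 (SE 0.04) for reads and 0.39 (SE 0.07) for TPM, and the first turned to 0.02 when libraries were scaled by median-of-ratios size factors.

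**Figure D2:**
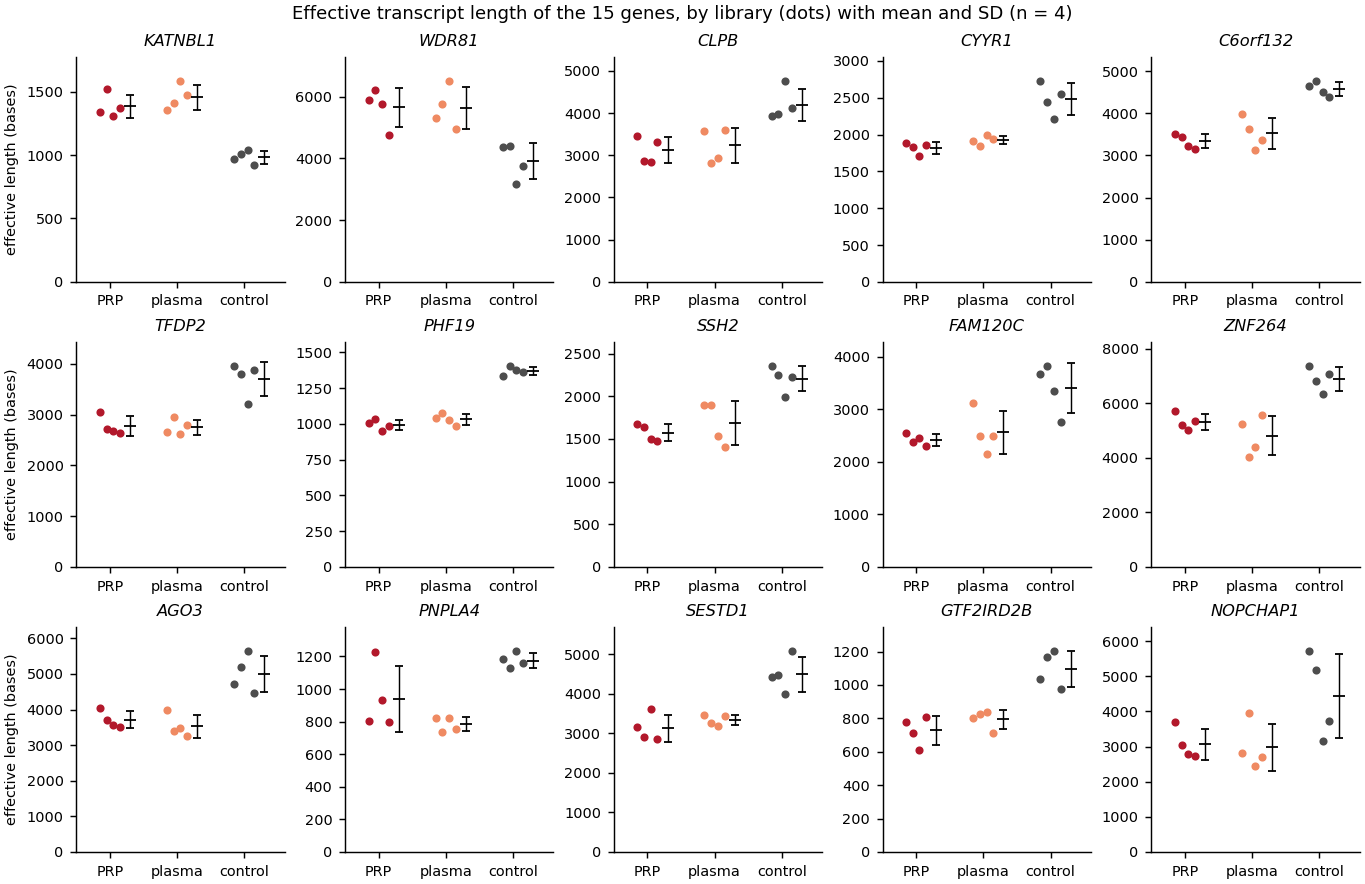
Effective transcript length in bases (y axis, from 0) of the 15 genes in PRP, plasma and control libraries; dots are libraries and bars the mean and SD of 4. KATNBL1 and WDR81 are longer and the other 13 shorter in treated libraries, and the treated and control dots overlap in NOPCHAP1, PNPLA4 and FAM120C.

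Among the members that act on chromatin, transcription and RNA, PHF19 had the highest TPM and the narrowest groups. PHF19 (ENSG00000119403, chr9:120855652-120894896, minus strand) encodes a Polycomb-like protein that helps bring the histone methyltransferase complex PRC2 to chromatin. PHF19 had effective lengths of 1004, 1034, 948 and 983 bases in PRP, 1042, 1076, 1025 and 986 bases in plasma, and 1335, 1404, 1375 and 1366 bases in control libraries. The gap between treated and control exceeded the range within any group. TPM was 134, 133, 139 and 123 in PRP, 117, 114, 123 and 123 in plasma, and 89.6, 91.5, 89.7 and 88.5 in control libraries. CPM was 85.5, 89.2, 88.8 and 82.8 in PRP, 77.3, 79.6, 84.8 and 82.6 in plasma, and 76.1, 80.7, 80.4 and 79.3 in control libraries. The TPM groups were well apart and the read groups overlapped between plasma and control. The annotation holds 14 PHF19 transcripts, of which the 3 longest have 3525, 4113 and 4241 bases and none of the other 11 exceeds 1092 bases.

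AGO3 (ENSG00000126070, chr1:35930718-36072500, plus strand) encodes an Argonaute protein, which carries small RNAs to their targets. Its reads differed between treated and control while its TPM hardly did. Its effective length was 4048, 3715, 3575 and 3507 bases in PRP, 3997, 3391, 3483 and 3260 bases in plasma, and 4715, 5182, 5637 and 4476 bases in control libraries. CPM was 38.1, 31.3, 32.1 and 32.4 in PRP, 37.4, 34.5, 34.4 and 32.5 in plasma, and 47.9, 48.8, 40.9 and 42.4 in control libraries, without overlap between treated and control. TPM averaged 13.7 ± 0.791 in PRP, 14.9 ± 0.481 in plasma and 14.1 ± 2.09 in control libraries (SD, n = 4 each), and these groups overlapped. The log2 change was -0.39 (SE 0.06) for reads and 0.03 (SE 0.08) for TPM. The longest AGO3 transcript in the annotation has 19687 bases, of which 85.1% is 3′ untranslated, and the next longest 3599 bases.

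TFDP2 (ENSG00000114126, chr3:141944428-142149544, minus strand), a partner of E2F transcription factors in cell cycle control, had 1965 to 2290 reads in PRP, 1871 to 2550 in plasma and 2012 to 2246 in control libraries. Its effective length averaged 2770 ± 195 bases in PRP, 2754 ± 146 in plasma and 3707 ± 341 in control libraries. Its TPM averaged 29.3 ± 1.47 in PRP, 31.4 ± 2.99 in plasma and 21.9 ± 1.46 in control libraries (SD, n = 4 each). Like SSH2 and SESTD1, it was higher in TPM in every treated library than in any control library while its read groups overlapped.

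ZNF264 (ENSG00000083844, chr19:57191500-57222846, plus strand), a zinc finger gene of the KRAB class, also had lower reads and a TPM that overlapped between all groups. Its reads were 1173 to 1279 in PRP, 1087 to 1507 in plasma and 1450 to 1600 in control libraries, with 1 plasma library inside the control range. Its TPM averaged 8.54 ± 0.150 in PRP, 10.0 ± 1.65 in plasma and 8.34 ± 0.544 in control libraries (SD, n = 4 each). Its effective length was 5027 to 5727 bases in PRP, 4048 to 5571 bases in plasma and 6333 to 7361 bases in control libraries.

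GTF2IRD2B (ENSG00000174428, chr7:75092573-75149817, plus strand) belongs to the GTF2I family of DNA-binding proteins. It has a near-identical copy, GTF2IRD2, between which reads can be split, so its values are uncertain. Its effective length averaged 728 ± 86.1 bases in PRP, 795 ± 57.2 bases in plasma and 1096 ± 106 bases in control libraries (SD, n = 4 each). Its TPM averaged 39.0 ± 4.70 in PRP, 41.4 ± 4.50 in plasma and 29.8 ± 2.68 in control libraries. Reads were 628 to 852 in PRP, 713 to 973 in plasma and 842 to 874 in control libraries. Its CPM was 17.0 to 20.3 in PRP, 19.7 to 23.3 in plasma and 20.5 to 21.3 in control libraries. Every PRP library was thus below every control library, while plasma overlapped with control. The log2 change of reads relative to control was -0.17 in PRP and 0.04 in plasma. GTF2IRD2 had a length shift of -0.02 and only 71 to 147 reads in PRP, 99 to 166 in plasma and 58 to 90 in control libraries.

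NOPCHAP1 (ENSG00000151131, chr12:104986310-105074197, plus strand, named C12orf45 in v29), a chaperone in the assembly of box C/D small nucleolar ribonucleoproteins, had the largest shift to a shorter estimate, at -0.54. Its control libraries were the most scattered of the set, at 5712, 5192, 3170 and 3738 bases, against 3695, 3030, 2782 and 2733 bases in PRP and 2830, 3957, 2449 and 2705 bases in plasma libraries. Control replicates 1 and 2 stood above all treated libraries, and control replicates 3 and 4 lay among them. In PRP and in plasma, replicates 1 and 2 were likewise above replicates 3 and 4. Reads were 654 to 956 in PRP, 658 to 1027 in plasma and 861 to 1301 in control libraries. NOPCHAP1 shares 145 exonic bases with ALDH1L2 on the opposite strand, which had 622 to 701 reads in PRP, 709 to 918 in plasma and 518 to 722 in control libraries; the part of those reads in the NOPCHAP1 values was not tested.

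Of the members with enzyme activity outside these groups, CLPB (ENSG00000162129, chr11:72285495-72434680, minus strand), a disaggregase of the mitochondrial intermembrane space, was higher on average in reads as well as in TPM. Its reads were 799, 843, 770 and 819 in PRP, 907, 764, 754 and 774 in plasma, and 739, 688, 697 and 744 in control libraries. Its TPM averaged 9.73 ± 0.919 in PRP, 9.43 ± 1.62 in plasma and 6.53 ± 0.775 in control libraries (SD, n = 4 each). Its effective length averaged 3120 ± 313 bases in PRP, 3233 ± 416 in plasma and 4194 ± 382 in control libraries. CLPB was the gene nearest the limit, and it stayed past it in 7 of 12 settings that left out 1 library each. It shares 835 exonic bases with the lincRNA AP000593.4 on the opposite strand.

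PNPLA4 (ENSG00000006757, chrX:7898247-7927739, minus strand), a patatin-like lipase that acts on retinyl esters and triglycerides, had the fewest reads of the set. It had 151, 187, 168 and 211 reads in PRP, 195, 128, 224 and 188 in plasma, and 204, 211, 243 and 244 in control libraries. Effective lengths were 801, 1227, 935 and 796 bases in PRP, 824, 738, 822 and 754 bases in plasma, and 1183, 1127, 1232 and 1158 bases in control libraries. All plasma libraries were below all control libraries, whereas PRP replicate 2 lay within the control range.

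CYYR1, FAM120C and C6orf132 are less well described genes. CYYR1 (ENSG00000166265, chr21:26466209-26573284, minus strand) had 343, 375, 401 and 415 reads in PRP, 468, 351, 455 and 435 in plasma, and 690, 628, 563 and 547 in control libraries. It had the lowest reads relative to control after KATNBL1, with a log2 change of -0.52 (SE 0.06), against -0.17 (SE 0.07) for TPM. Its annotation holds only 2 transcripts, of 735 and 3101 bases, and its mean length was 2089 ± 73.2 bases in PRP, 2191 ± 60.9 in plasma and 2755 ± 219 in control libraries (SD, n = 4 each).

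C6orf132 (ENSG00000188112, chr6:42101118-42142619, minus strand) was the member with the most reads, at 5354 to 5794 in PRP, 5387 to 6546 in plasma and 5288 to 6129 in control libraries. Its TPM was 58.9 to 68.0 in PRP, 61.9 to 65.4 in plasma and 43.4 to 50.5 in control libraries. It also has 2 annotated transcripts, of 894 and 6210 bases, and its effective length was 3156 to 3502 bases in PRP, 3129 to 3974 in plasma and 4391 to 4763 in control libraries. FAM120C (ENSG00000184083, chrX:54068324-54183281, minus strand) had effective lengths of 2292 to 2555 bases in PRP, 2144 to 3124 in plasma and 2762 to 3816 in control libraries, where control replicate 4 lay within the treated range. Its reads were 607 to 645 in PRP, 559 to 718 in plasma and 649 to 853 in control libraries.

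**Figure D3:**
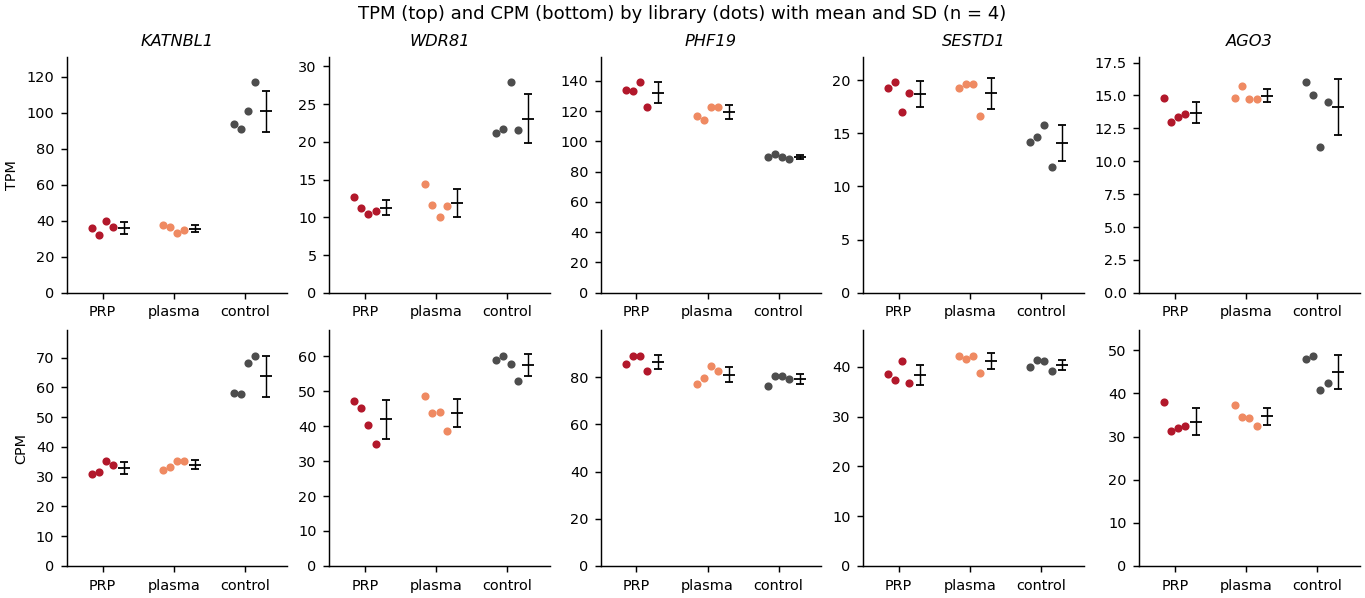
TPM (upper row) and CPM (lower row), each from 0, of 5 of the genes in PRP, plasma and control libraries; dots are libraries and bars the mean and SD of 4. KATNBL1 and WDR81 were lower in treated libraries in both measures, PHF19 and SESTD1 were higher in TPM with little difference in reads, and AGO3 was lower in reads with little difference in TPM.

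Effective length is the length less a gap that overlapped between groups, so length and effective length moved together by construction. Subtracting such a gap enlarges a log2 shift, most in short genes. Every one of the 15 genes had a shift of at least 0.3 in the length itself, between -0.50 for NOPCHAP1 and 0.50 for WDR81. In KATNBL1 the length shift was 0.43 against 0.53 for effective length, and in PHF19 it was -0.35 against -0.44. PRP and plasma share their control libraries, and the pooled shift chose the genes, so their shifts are given side by side only. KATNBL1 shifted by 0.50 in PRP and 0.57 in plasma relative to control, WDR81 by 0.53 in each, SESTD1 by -0.52 and -0.42, and PNPLA4 by -0.34 and -0.58.

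The treated and control libraries did not overlap in effective length in 12 of the 15 genes, against 4.70% of the 9647 genes. For TPM the count was 9 of 15, against 39.7%, and for CPM it was 4 of 15 (AGO3, CYYR1, WDR81 and KATNBL1), against 46.2%. The members were chosen on this contrast, and TPM contains the effective length, so nothing is read from these counts. The spread within groups was also wider than usual in these genes, with a median SD of log2 effective length of 0.142, against 0.033 over all 9647 genes.

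TPM and reads gave different accounts of these genes. On the log2 scale without the added 1, the TPM change of each of the 15 was the read change less the length shift, with a constant of -0.04 common to all of them. With the added 1, used for the changes given here, this holds less closely for low genes. All 13 genes with shorter estimates had a TPM change above their read change, which follows from the rule that chose them. The TPM change was above 0 in 12 of the 13 and the read change in 5. The signs of the TPM and read changes were opposite in 7 of the 15 genes, against 6.83% of the 9647 genes. These were NOPCHAP1, GTF2IRD2B, SESTD1, PNPLA4, AGO3, ZNF264 and FAM120C. TPM contains the length shift that chose the members, so an excess of opposite signs is built in and nothing is read from this count. The count was 6 with median-of-ratios size factors and 7 to 9 with 1 library left out. Changes near 0 turned sign in some of these, such as TPM of AGO3, at -0.08 without control replicate 3.

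**Figure D4:**
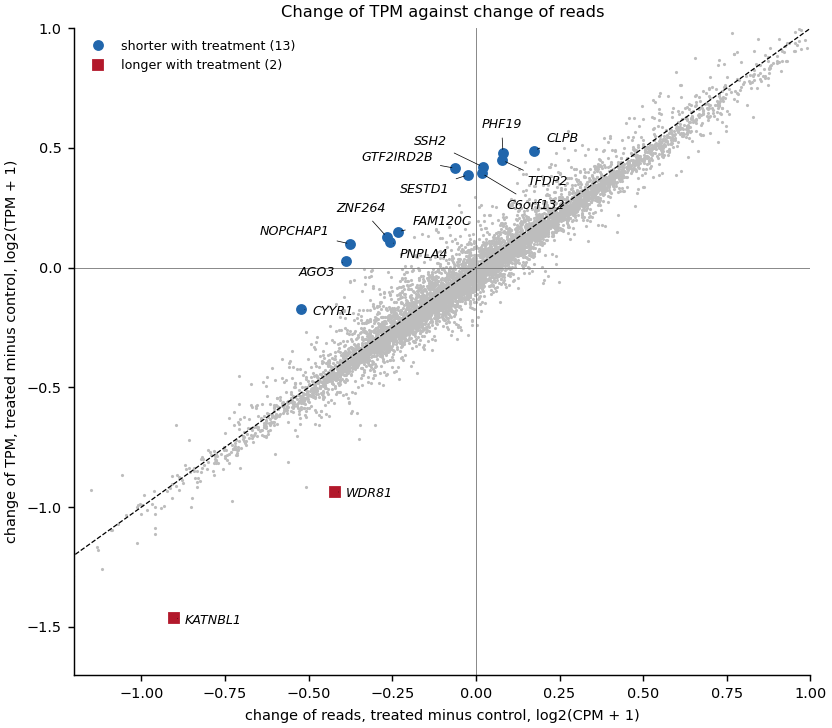
Change of TPM (y axis) against change of reads (x axis), both log2 of the value plus 1, mean of PRP and plasma minus control, with genes beyond the axes not drawn. Grey points are the other genes with at least 5 TPM in all 12 libraries. Blue dots are the 13 genes with a shorter and red squares the 2 genes with a longer estimate. The blue dots lie above the dashed line of equal change and the squares below it.

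By limma at an adjusted p under 0.05, 10 of the 15 genes were past the threshold for reads (2 higher, 8 lower), against 64.6% of 12517 genes tested (28.4% higher, 36.2% lower). For TPM 10 of 15 were past it (7 higher, 3 lower), against 57.1% (23.1% higher, 34.0% lower). Since most genes passed either test and the contrast is the one that chose the members, these counts are a description. PHF19, CYYR1, CLPB, WDR81 and KATNBL1 passed both, in the same direction. GTF2IRD2B, SESTD1, SSH2, TFDP2 and C6orf132 passed for TPM only, and NOPCHAP1, PNPLA4, AGO3, ZNF264 and FAM120C for reads only. The calls of PHF19 and NOPCHAP1 in reads and of CYYR1 in TPM were near the threshold. NOPCHAP1 lost its call in 8 of 19 settings, 6 of which left out 1 library, and PNPLA4 and FAM120C in 2 each. PHF19 lost its call in 10 of 12 settings that left out 1 library each, with a change of 0.06 to 0.09, and CYYR1 in 9 of 12, with a change of -0.13 to -0.17.

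The comparison of PRP with plasma was not used to choose the genes. No member passed the threshold between PRP and plasma in effective length, by limma with Benjamini-Hochberg adjustment over 9647 genes, of which 0 (0%) passed. At an unadjusted p under 0.05 there were 395 genes and 0 members. Differences in the 15 genes ran between -0.13 and 0.24 (log2, PRP minus plasma), with SE of 0.03 to 0.21 and adjusted p of 0.994 to 0.997. PNPLA4 had the largest, at 0.24 (SE 0.12). PRP and plasma libraries overlapped in effective length in all 15 genes, against 2.04% of genes without overlap.

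In TPM, 0 of 15 members passed between PRP and plasma by limma, against 8 of 12517 genes (0.0639%). At an unadjusted p under 0.05 there were 1 of 15 members and 999 of 12517 genes. In reads, 0 of 15 passed (also 0 by limma's voom), against 11 of 12517 (0.0879%). Unadjusted, there were 2 of 15 members and 1251 of 12517 genes. PHF19 came nearest in TPM, at 132 ± 6.62 in PRP and 119 ± 4.72 in plasma (SD, n = 4 each), a log2 difference of 0.15 (SE 0.04) with a limma p of 0.00249 and an adjusted p of 0.318. Its lowest PRP library and its highest plasma libraries were both close to 123 TPM, and the groups touched without overlap. It was the only member whose PRP and plasma libraries did not overlap in TPM, against 5.30% of genes, and 0 of 15 were without overlap in CPM, against 6.69%. In reads GTF2IRD2B came nearest, at 18.6 ± 1.36 CPM in PRP and 21.6 ± 1.49 in plasma, a log2 difference of -0.21 (SE 0.06) with a limma adjusted p of 0.251. KATNBL1 differed by 0.02 (SE 0.08) in TPM and by -0.05 (SE 0.07) in reads.

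The factors that process mRNA were examined beside these genes. Splicing factors, the cleavage and polyadenylation machinery and nonsense-mediated decay, which destroys mRNAs with early stop codons, set which isoforms a gene leaves in the cell. Of 148 such genes in 7 lists, 142 were tested in reads. Of these 142, 48 rose and 38 fell with treatment (limma, adjusted p under 0.05). Of all 12517 genes, 3554 (28.4%) were higher and 4528 (36.2%) lower. The median change was 0.02 in the lists against -0.03 for all genes. With median-of-ratios size factors 60 of the 142 were higher and 28 lower, against 4131 and 3856 of the 12517. The median was then 0.06 against 0.00 for all genes. None of the 15 genes is in a list, and the part of these factors in the length shifts was not tested.

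Genes of the U1 and U2 small nuclear ribonucleoproteins, which recognise splice sites, mostly rose. Of 22 genes 14 were higher and 2 lower, with a median change of 0.14. By median-of-ratios size factors 16 were higher and 1 lower. Of all 12517 genes tested, 28.4% were higher and 36.2% lower, or 4131 higher and 3856 lower by median-of-ratios size factors. SNRPA, a U1 protein, averaged 94.9 ± 4.40 CPM in PRP, 95.8 ± 1.86 in plasma and 65.7 ± 2.31 in control libraries (SD, n = 4 each), a log2 change of 0.53 (SE 0.03, limma adjusted p 5.19e-09). SNRNP70, another U1 protein, rose by 0.47 (SE 0.04). Of 26 hnRNP proteins, which coat nascent RNA, 11 rose and 1 fell, with a median of 0.07. By median-of-ratios size factors 15 were higher and 1 lower. HNRNPM rose by 0.41 (SE 0.04) and HNRNPC by 0.34 (SE 0.03).

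The nonsense-mediated decay list moved mostly the other way, with 12 of 19 lower, 5 higher and a median of -0.12. By median-of-ratios size factors 8 were lower and 5 higher. Of all 12517 genes tested, 36.2% were lower and 28.4% higher, or 3856 lower and 4131 higher by median-of-ratios size factors. SMG9, which binds the kinase that starts decay, averaged 25.0 ± 1.10 CPM in PRP, 27.9 ± 1.54 in plasma and 44.8 ± 1.24 in control libraries (SD, n = 4 each), a change of -0.74 (SE 0.04, limma adjusted p 1.51e-09). UPF3B fell by 0.65 (SE 0.07) and UPF3A fell by 0.41 (SE 0.03), both of which link the exon junction complex to decay. EIF4A3, the helicase at the core of that complex, rose by 0.39 (SE 0.03).

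Cleavage and polyadenylation genes were mixed, with 4 of 25 higher, 5 lower and a median of -0.01. By median-of-ratios size factors 8 were higher and 4 lower, with a median of 0.03. For this list and those below, the shares over all 12517 genes tested were 28.4% higher and 36.2% lower. By median-of-ratios size factors 4131 of all genes were higher and 3856 lower. CPSF4, a subunit that binds the poly(A) signal, rose by 0.87 (SE 0.08), at 21.9 ± 0.0974 CPM in PRP, 18.4 ± 2.21 in plasma and 10.6 ± 1.79 in control libraries (SD, n = 4 each). CPSF7, of the cleavage factor that shifts poly(A) site choice, fell by 0.41 (SE 0.03), and CPSF6, of the same factor, rose by 0.22 (SE 0.03). SR proteins and their relatives had 8 of 24 higher and 8 lower, or 9 and 6 by median-of-ratios size factors. The SR protein kinases had 4 of 8 lower and 0 higher, or 3 and 0 by median-of-ratios size factors. Among them were SRPK2 at -0.28 (SE 0.03) and CLK4 at -0.38 (SE 0.05). Of 18 tissue splicing regulators 6 rose and 6 fell, or 7 and 5 by median-of-ratios size factors, with MBNL2 at -0.41 (SE 0.03) and RBM47 at 0.36 (SE 0.04). Between PRP and plasma 0 genes passed in each of the 7 lists in reads by limma (also 0 by voom), against 0.0879% of all genes. At an unadjusted p under 0.05 there were 13 of the 142 list genes and 1251 of all 12517.

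**Figure D5:**
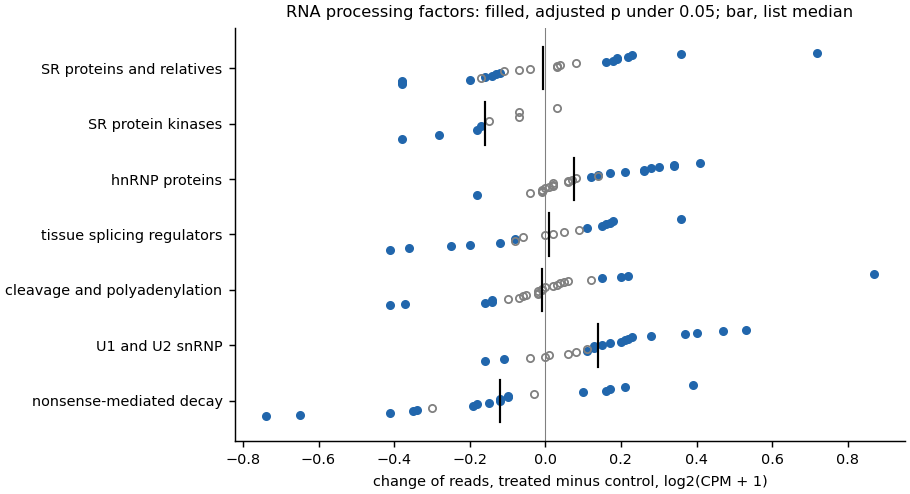
Change of reads (x axis, log2 of CPM plus 1, mean of PRP and plasma minus control) of the genes in 7 RNA processing lists. Filled dots passed an adjusted p of 0.05 in limma, open dots did not, and the bar is the list's median, highest for U1 and U2 snRNP genes at 0.14 and lowest for SR protein kinases at -0.16.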

How the data were processed

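RNA was extracted with the RNeasy kit, and libraries were made from polyadenylated RNA with the Watchmaker mRNA kit, per the labels' protocols. The submitters' processing notes name Salmon and the build hg38; the version, the transcript set and the strand setting are not given in the sources used here. Each deposited file lists, per the file headers, the length, effective length, TPM and estimated reads of 20375 genes in 1 library, with decimal commas. TPM recomputed from the deposited reads and effective lengths matched the deposited TPM in all 20375 genes.

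From these, limma 3.58.1 in R 4.3.3 was run over all 12 libraries with 1 term per group (9 residual degrees of freedom), two-sided, with Benjamini-Hochberg adjustment at 0.05. It was run on log2 effective length for the 9647 genes with at least 5 TPM in every library. It was also run, with a trend in the variance, on log2(TPM + 1) and log2(CPM + 1) for the 12517 genes that reached 1 TPM in 4 or more libraries. CPM here is the deposited estimated reads scaled by their library total. Changes on these log2 scales understate those of low genes. No count model was run, because the unit check could not read decimal commas as counts. The fits were also run on simulated data with known changes. The simulated libraries were independent, with a fixed dispersion of counts, so they cannot show how the tests behave on these replicates.

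All 15 members are named, and from each of 7 RNA processing lists the genes named are among the 4 with the smallest adjusted p for reads, treated against control. The members, the lists and the rule were chosen with earlier results of these data known. Alternatives were other limits, filters, pseudocounts and scalings, voom, a block on replicate number, and leaving out each library. Annotation came from GENCODE v29 (GRCh38) and promoters from RefSeq (GRCh38.p14).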

Additional observations from a re-analysis of the deposited data

Results flagged for a closer look

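Of 135 groups of 4 libraries (15 genes, 3 groups, effective length, TPM and CPM), 7 held a library far from the other 3 by Dixon's criterion, against 6.75 that chance gives at 5%. TPM of WDR81 was 27.9 in control replicate 3, against 21.2 to 21.7 in the other control libraries, so the control mean is raised by that library. TPM of FAM120C was 7.54 in control replicate 3, against 8.65 to 8.86. TPM of SESTD1 was 16.6 in plasma replicate 4, against 19.3 to 19.6. TPM of AGO3 was 15.7 in plasma replicate 2, against 14.7 to 14.8. TPM of CYYR1 was 9.23 in plasma replicate 1, against 7.92 to 8.10. CPM (reads scaled by the library total) of ZNF264 was 36.1 in plasma replicate 1, above the other 3 plasma libraries, and that of AGO3 was 38.1 in PRP replicate 1, against 31.3 to 32.4. Effective length gave no such library in any gene.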

How the results depend on the processing

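The number of genes depends on the limits: 46 at a limit of 0.3, 4 at 0.5, 36 with a TPM minimum of 1, 9 with a minimum of 10, and 8 with length in place of effective length. Leaving out 1 library gave 14 to 17. The effective length shift kept its direction in every gene under all these settings, and 11 of the 15 genes stayed past 0.4 in all 12 settings that left out 1 library; CLPB stayed in 7, CYYR1 in 9, TFDP2 in 10 and FAM120C in 11. Between PRP and plasma the counts over all genes were small and unsteady. For effective length 2 genes passed without the 3 libraries numbered 1, and 0 to 2 with 1 library left out, against 0. For TPM 4 passed without a filter, 2 without the libraries numbered 1 and 4 to 14 with 1 library left out, against 8. For reads 7 passed without a filter and 7 to 20 with 1 library left out, against 11, and 34 with the replicate block. The causes were not tested. No member passed in any of these PRP against plasma settings. Same-numbered libraries correlated at -0.10 to 0.44 in their deviations from group means, over 0.1 in 8 of 12 pairs and at 0.27 to 0.44 for number 1. Not every pair passed 0.1 and the labels give the numbers no meaning, so they were not used as a pairing. The libraries numbered 1 nevertheless deviated together. The share of mitochondrial reads also followed the number. It was 0.191 to 0.287% in the libraries numbered 1 and 0.463 to 0.487% in those numbered 2. In those numbered 3 and 4 it was 0.572 to 0.969%. Effective lengths of NOPCHAP1, SSH2 and C6orf132 were higher in replicates 1 and 2 than in 3 and 4 in each group. The main fits do not take this structure into account. For treated against control the calls of NOPCHAP1, PNPLA4, FAM120C, CLPB and PHF19 in reads and of CYYR1 in TPM were lost under some settings, without a change of sign. Uncalled changes near 0 changed sign in some, among them TPM of NOPCHAP1, at -0.02 without the libraries numbered 1. The quasi-likelihood count model was not run. No interval for the estimated lengths is given in the files used, so the error of a length within a library is unknown.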
